A study of Mus musculus with 19 samples.

Results

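The 10 genes described here encode the D-type cyclins (Ccnd1, Ccnd2 and Ccnd3), the kinases they activate (Cdk4 and Cdk6), the INK4 inhibitors of these kinases (Cdkn2b and Cdkn2c) and the CIP/KIP inhibitors of cyclin-CDK complexes (Cdkn1a, Cdkn1b and Cdkn1c). Their members were the probes that carry one of these names on the arrays, 24 of 56605 probes, and 10 of the 20818 genes tested. RNA was measured on 19 single-colour arrays, each from the sorted CD24+CD29lo mammary luminal cells (LCs) of a female C57Bl/6N mouse ovariectomized at 24 days of age by the sample labels. A pellet was placed 10 days later and left for 21 days, and the mice were 8 weeks old by the series' description. It released 0.01 mg of estradiol (E2) over 60 days, alone or with 1.5 mg of progesterone (Pg). The groups were C451A-ERα with E2+Pg (n = 5), wild-type (WT) with E2+Pg (n = 5), C451A-ERα with E2 (n = 5) and WT with E2 (n = 4). C451A-ERα mice carry a knock-in mutation of the palmitoylation site of the estrogen receptor α in all their cells, which keeps the receptor from the plasma membrane, so that an effect arising outside the LCs cannot be told apart from one within them. All groups received E2, and none was left without hormone.

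D-type cyclins bind CDK4 or CDK6 in G1, and the active kinases phosphorylate the retinoblastoma protein and release E2F factors for entry into S phase. INK4 proteins bind CDK4 and CDK6 alone, whereas CIP/KIP proteins bind the assembled cyclin-CDK complexes and mainly restrain CDK2. In the mouse mammary gland, cyclin D1 is known as the D-type cyclin needed for lobuloalveolar growth in pregnancy, and estrogen and progesterone act on the pathway through both intrinsic and paracrine signals.

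A second probe of 2 genes is shown because each measured its gene apart from the brighter probe whose values are used below, and the promoter of another because that gene differed with genotype. These probes lie in the coding sequence of Ccnd2 (from base 609 of its transcript, chr6:127098696-127098755, minus strand, mm9) and Cdk4 (from base 861, chr10:126503162-126503221, plus strand, mm9), upstream of the brightest probes of these genes.
Ccnd2 probe A_52_P53906: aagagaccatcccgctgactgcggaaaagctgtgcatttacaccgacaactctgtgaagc
Cdk4 probe A_55_P2166639: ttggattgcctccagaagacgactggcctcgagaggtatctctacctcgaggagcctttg
The last sequence is the 250 bases upstream of the start of Cdkn2b (chr4:89311033-89311282, minus strand, RefSeq, GRCm38.p6), with a CAGA box (CAGAC, bound by SMAD factors) and a cyclic AMP response element (TGACGTCA) in capitals.
Cdkn2b promoter: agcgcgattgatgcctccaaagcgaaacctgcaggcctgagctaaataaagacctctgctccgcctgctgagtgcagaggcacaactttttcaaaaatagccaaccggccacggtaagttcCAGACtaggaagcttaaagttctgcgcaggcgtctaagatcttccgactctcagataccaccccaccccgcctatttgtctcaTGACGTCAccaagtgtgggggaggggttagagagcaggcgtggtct
On either strand, CAGAC was present in 42.2% and TGACGTCA in 1.55% of 32851 mouse promoter windows of 250 bases. The palindromic estrogen response element (0.0639% of windows) and its half-site GGTCA (35.2%) had no match in the Cdkn2b window, nor had the palindromic progesterone response element (0.00913%). Of the 10 windows found for 7 of the genes, 4 held GGTCA and none held the full element of either receptor. The element TGACGTCA was searched after the window had been read.

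The arrays had a 75th percentile of signal of 248.5 to 490 and a background of 21 to 29, and no spot was saturated. The 6 pan-luminal markers (Krt8, Krt18, Krt19, Epcam, Cd24a and Gata3) were well above background on all 19 arrays, as were all 10 basal, all 6 fibroblast and 6 of 7 immune markers. Of the endothelial markers, Tek was above background on no array, while Pecam1, Cdh5, Kdr and Emcn were on 17, 18, 17 and 19. Of the adipocyte markers, Adipoq and Plin1 were above background on no array, while Fabp4 and Lep were on all 19. In bulk RNA, fewer cells of a type and less RNA per cell cannot be told apart. The point mutation itself cannot be seen on the arrays. The 3 arrays that carried the least weight when each array was weighted by its fit were those of the C451A-ERα mice L18 (E2+Pg), L4 and L27 (E2), at 0.309, 0.247 and 0.291.

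Each of the 10 genes had a probe well above background on all 19 arrays, and 23 of the 24 probes passed the filter. A gene was called when limma gave a Benjamini-Hochberg adjusted p under 0.05 over all genes tested and the fold change exceeded 1.5. Between C451A-ERα and WT, none of the 10 genes was called under E2 (0.0288% of all genes were) or under E2+Pg (0.0048%). Between E2+Pg and E2, none was called in WT (1.35%) or in C451A-ERα (2.47%). The unadjusted p was under 0.05 for 4 of the 10 in the first of these comparisons (13.7% of all genes), 2 in the second (18.3%), 3 in the third (16.4%) and 3 in the last (18.4%). When the genotype difference was averaged over both treatments, Cdkn2b was called lower (1.92% of all genes were). When the Pg difference was averaged over both genotypes, Ccnd2 and Cdkn2b were called lower (2.18%). In these averages the unadjusted p was under 0.05 for 2 of the 10 (18.4% of all genes) with genotype and 4 (21%) with Pg. No gene on the array was called for the interaction of genotype and Pg (0%), and 1959 genes (9.41%) had an unadjusted p under 0.05 for it, among them Cdk4.

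**Figure D1:**
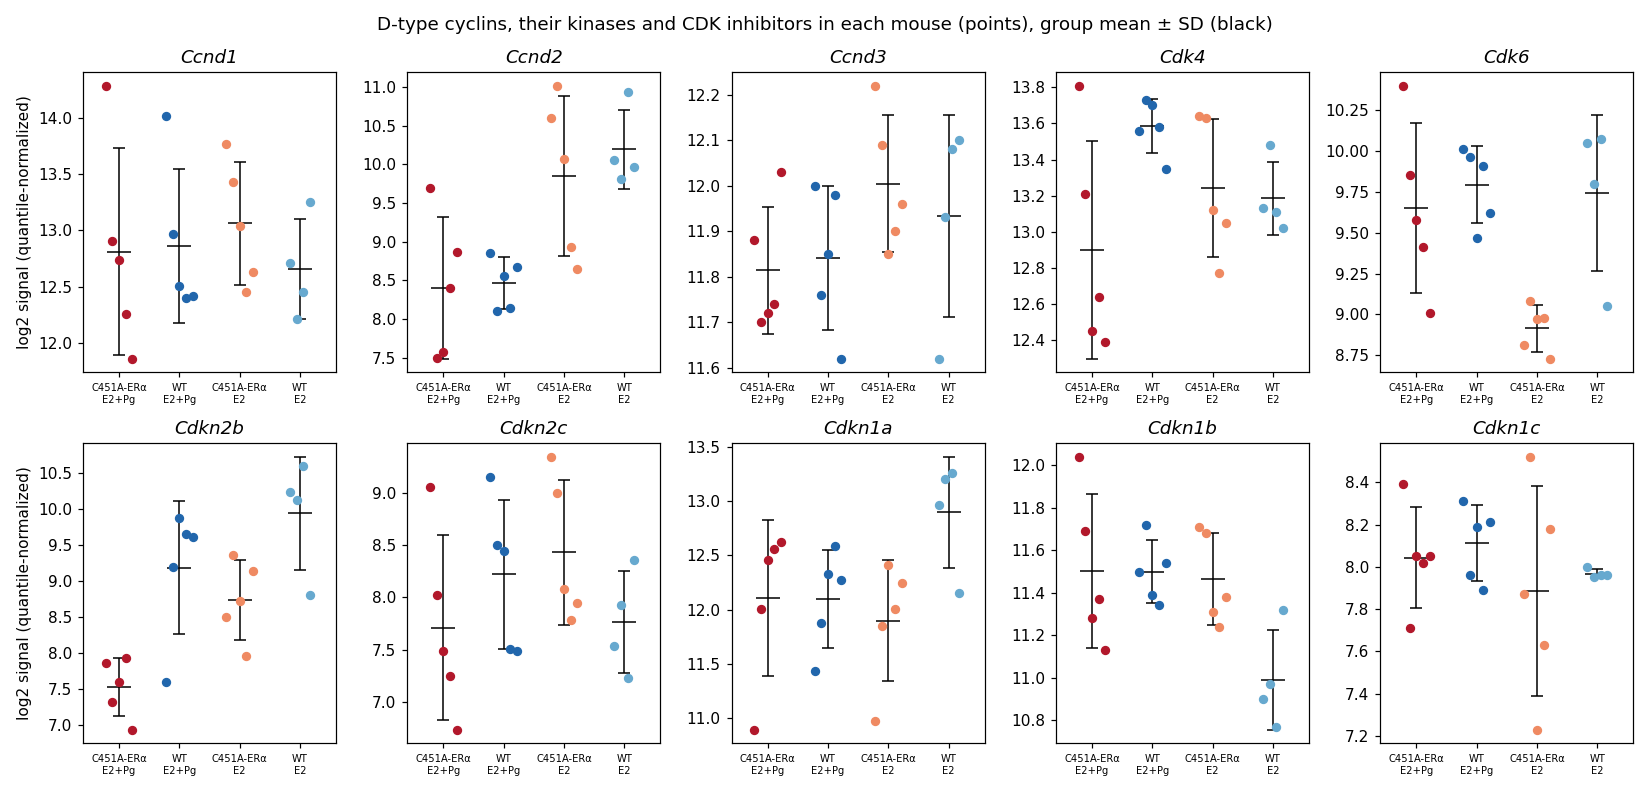
Log2 signal (vertical axes, each with its own range) of the 10 genes in the LCs of each mouse (points) in C451A-ERα with E2+Pg, WT with E2+Pg, C451A-ERα with E2 and WT with E2, with the mean and SD of each group in black. Ccnd2 was lower in E2+Pg than in E2 mice in WT without overlap, Cdkn2b was lowest in C451A-ERα mice with E2+Pg, and Ccnd3 lay between 11.62 and 12.22 in every mouse.

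**Figure D2:**
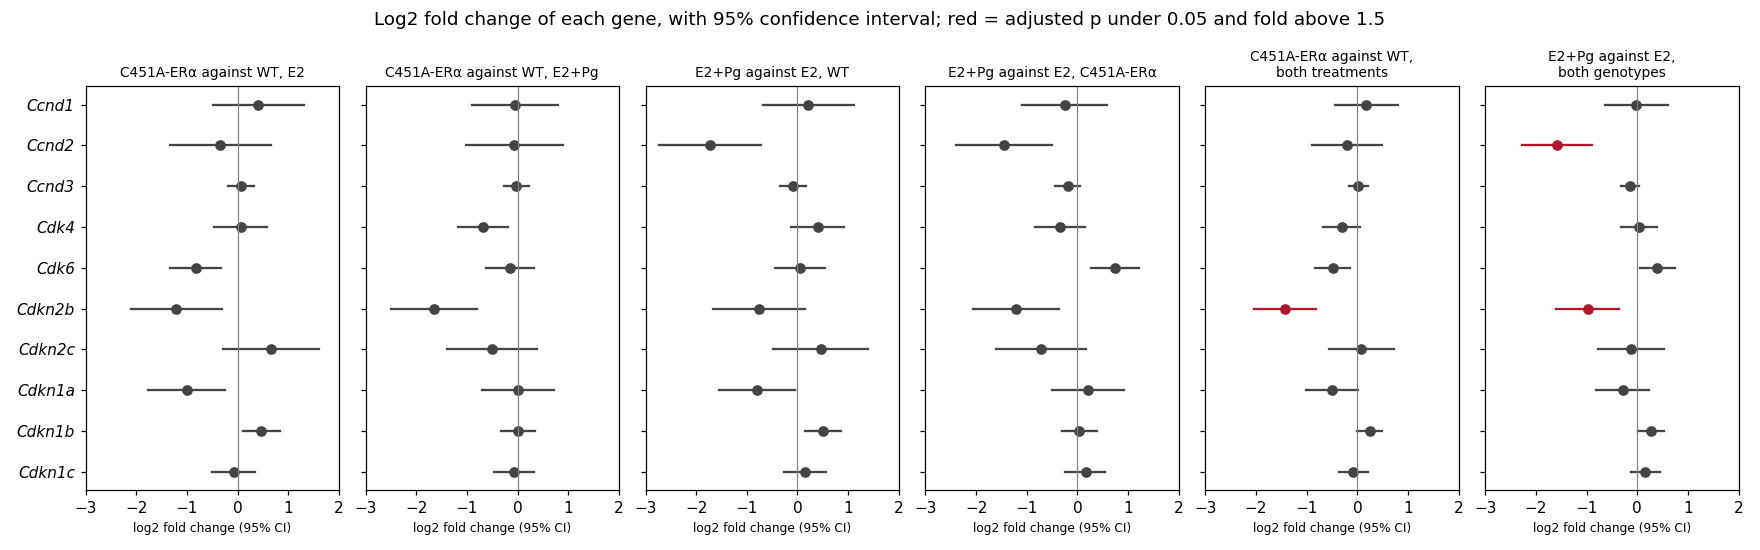
Log2 fold change (horizontal axis) of the 10 genes with its 95% confidence interval in 6 comparisons, each with a panel; red marks called genes. The 3 red values are Cdkn2b at -1.43 for genotype over both treatments, and Ccnd2 at -1.58 and Cdkn2b at -0.98 for Pg over both genotypes.

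Ccnd2, which encodes cyclin D2, was the cyclin that differed with Pg. In C451A-ERα mice its log2 signal was 7.5, 7.58, 8.4, 8.87 and 9.69 with E2+Pg, against 8.65, 8.93, 10.07, 10.6 and 11.02 with E2. In WT mice it was 8.1, 8.15, 8.56, 8.67 and 8.86 with E2+Pg, against 9.81, 9.97, 10.06 and 10.94 with E2. Every WT mouse with E2+Pg thus lay below every WT mouse with E2, while in C451A-ERα mice L63 (8.87) and L18 (9.69) with E2+Pg overlapped the lower E2 mice. Ccnd2 and Cdkn1b were the genes of the 10 without overlap in WT (8.7% of all genes were), and Cdkn2b in C451A-ERα (5.09%). None of the 10 lacked overlap between the genotypes under E2 (3.55% of all genes did) or E2+Pg (2.6%).

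Over both genotypes, the Ccnd2 signal was 3-fold lower with E2+Pg (log2 fold change -1.58, SE 0.33, 95% interval -2.27 to -0.89, limma adjusted p = 0.00608), against a median log2 change of 0.01 over all genes. The call held under all 28 alternatives, with adjusted p from 0.000624 to 0.0177. Within a genotype the difference did not pass the adjusted threshold, with -1.72 (SE 0.48) in WT at an adjusted p of 0.0768 and -1.44 (SE 0.45) in C451A-ERα at 0.0848. The C451A-ERα difference was called without L18 (-1.76, adjusted p = 0.0296, with 4.64% of all genes) or L58 (-1.68, 0.0498, with 3.52%). The signal was lower with E2+Pg on 4 of 4 slides in WT and on 4 of 5 in C451A-ERα. The coding probe shown above gave -1.25 (SE 0.28, adjusted p = 0.0124 over all probes) and the probe farthest along the transcript (chr6:127075412-127075471, mm9) gave -1.34 (SE 0.29, adjusted p = 0.00943). Ccnd2 was not called for genotype, at -0.20 over both treatments with an interval of -0.89 to 0.49, and the interaction was 0.28 (-1.1 to 1.66). The genotype value depended on the processing. It ran from -0.678 to -0.048 over the 28 alternatives, with a lowest adjusted p of 0.0614, and from -0.976 to -0.037 under E2 (lowest 0.102).

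The genes with the most similar signal to Ccnd2 over the 19 arrays were Krt5, which encodes a basal keratin (r = 0.912), and Mill1, which encodes an MHC class I-like molecule (r = 0.903). Mill1 was well above background on 8 arrays, 7 of 9 with E2 and 1 of 10 with E2+Pg, so its values with E2+Pg lay mostly near background. The 19 arrays share their groups and normalization, so the coefficients describe a common pattern. Krt5 had log2 signals of 7.3 to 11.41 in C451A-ERα mice with E2+Pg, against 9.08 to 12.1 with E2. In WT mice it had 7.68 to 9.56 with E2+Pg, against 10.52 to 11.94 with E2. Over both genotypes it was 4.89-fold lower with E2+Pg (-2.29, SE 0.49, adjusted p = 0.00739), and it was the only one of the 10 basal markers that was called. Of these 10 markers, 4 were higher and 6, Krt5 included, were lower with E2+Pg, with a median log2 change of -0.06. Krt14 was at -0.64 (adjusted p = 0.256), Krt17 at -0.06 (0.94), Trp63 at -0.05 (0.912), Acta2 at -0.08 (0.836) and Myh11 at 0.03 (0.961). On the log2 scale, the summed signal of the basal list was 15 to 15.59 in C451A-ERα and 14.78 to 15.43 in WT with E2+Pg, against 14.78 to 15.5 in C451A-ERα and 15.36 to 15.71 in WT with E2. The part of basal cells in the Ccnd2 difference was not tested.

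**Figure D3:**
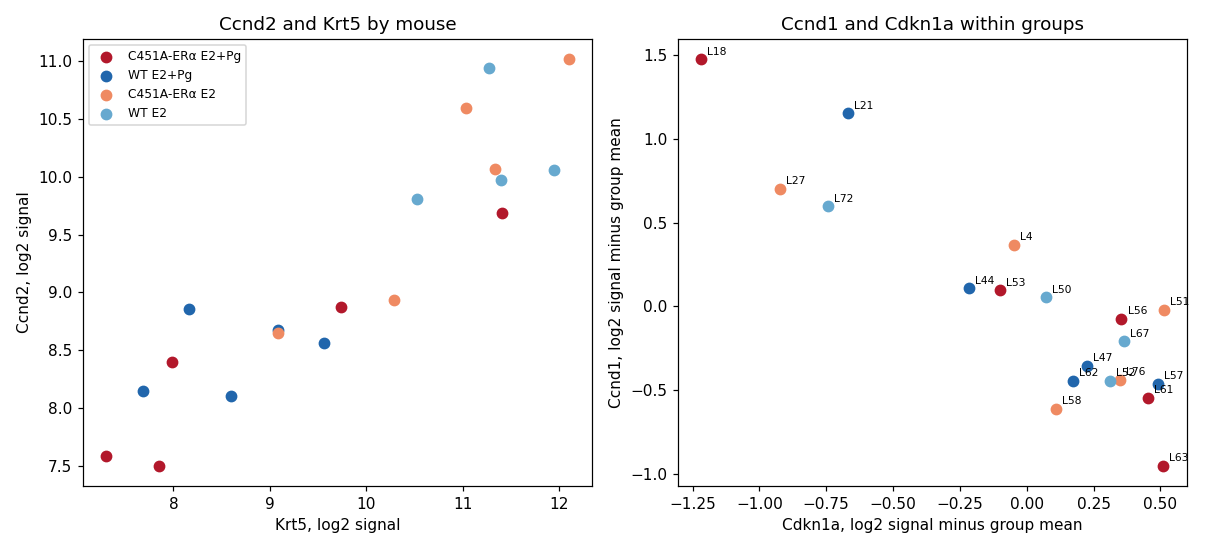
Left, log2 signal of Ccnd2 (vertical) against that of Krt5 (horizontal) in each of 19 mice, coloured by group; C451A-ERα mouse L18 (E2+Pg) lies at the upper right with all 4 WT and 3 of 5 C451A-ERα mice with E2. Right, deviation from the group mean of Ccnd1 (vertical) against that of Cdkn1a (horizontal), in log2 units, with the mouse numbers; L18, L21, L27 and L72 lie apart at high Ccnd1 and low Cdkn1a.

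Ccnd1, which encodes cyclin D1, and Ccnd3, which encodes cyclin D3, were not called in any comparison. Ccnd1 had log2 signals of 11.86 to 14.29 (median 12.74) in C451A-ERα and 12.4 to 14.02 (12.51) in WT with E2+Pg, against 12.45 to 13.77 (13.04) in C451A-ERα and 12.21 to 13.25 (12.58) in WT with E2. All of these ranges overlapped, and the spread within groups (SD 0.45 to 0.92) left intervals of -0.44 to 0.80 for genotype over both treatments and -0.64 to 0.60 for Pg over both genotypes. Differences of Ccnd1 within these intervals remain compatible with the values, and no limit of detection was computed. Ccnd3 was the steadiest of the 10 across genotypes, with an interval of -0.16 to 0.20 for genotype and -0.32 to 0.04 for Pg. Its 2 overlapping probes in the same exon (A_55_P2041075 and A_55_P2918958) had the same sign as each other in the 4 comparisons within a treatment or genotype. A dimmer probe, on another transcript, gave values of the other sign under E2+Pg (0.36, adjusted p = 0.478) and for Pg in C451A-ERα (0.11, 0.88).

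Cdk4 and Cdk6 encode the kinases partnered by these cyclins. Cdk4 had log2 signals of 12.39, 12.45, 12.64, 13.21 and 13.81 in C451A-ERα mice with E2+Pg, against 13.35, 13.56, 13.58, 13.7 and 13.73 in WT mice with E2+Pg. Of the C451A-ERα mice, 4 lay below every WT mouse and L18 lay above all of them. The difference was -0.68 (SE 0.24, adjusted p = 0.188), with all 4 probes lower (-0.60 to -0.96, the coding probe shown above at -0.88, adjusted p = 0.121), and was called without L18 (-0.91, adjusted p = 0.0334). Probes A_55_P2163143 (chr10:126504279-126504338, mm9) and A_55_P1998186 (chr10:126504286-126504342) overlap and are not separate measurements. Without L18, 1077 of all genes (5.17%) were called in this comparison, in place of 1. Under E2, Cdk4 had 12.77 to 13.64 in C451A-ERα and 13.02 to 13.48 in WT mice (0.06, SE 0.25). The interaction of genotype and Pg was -0.74 (interval -1.46 to -0.02, unadjusted p = 0.0447 by limma, adjusted p = 0.474).

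Cdk6 varied least in C451A-ERα mice with E2, where its log2 signal was 8.73, 8.81, 8.97, 8.98 and 9.08, against 9.05, 9.8, 10.05 and 10.07 in WT mice with E2. The groups overlapped through the WT mouse L72 (9.05). The difference was -0.83 (SE 0.24, 1.77-fold, adjusted p = 0.142), lower on 4 of 4 slides, and was called without L72 (-1.06, adjusted p = 0.0114). Without L72, 1037 of all genes (4.98%) were called in this comparison, in place of 6. In C451A-ERα mice with E2+Pg the signal was 9.01, 9.41, 9.58, 9.85 and 10.4, which was 0.74 (SE 0.23) above that of C451A-ERα mice with E2 (adjusted p = 0.0809, and 0.0438 without L63, when 1.63% of all genes were called) and higher on 5 of 5 slides. Over both treatments the genotype difference was -0.49 (SE 0.16, adjusted p = 0.113), and it was called without L72 (-0.60, 0.0198), as were 4.8% of all genes. In WT mice with E2+Pg it was 9.47 to 10.01, at 0.05 (SE 0.24) from WT with E2. A dimmer probe of Cdk6, above background on every array, gave -0.79 for genotype under E2 and 0.70 for Pg in C451A-ERα. Another was not well above background in any C451A-ERα mouse with E2, and no difference is given for it. The interaction was 0.68 (interval -0.01 to 1.37, adjusted p = 0.474). Pls3 (r = 0.879), which encodes the actin-bundling plastin 3, and 1700016C15Rik (r = 0.889) had the most similar signals to Cdk6.

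**Figure D4:**
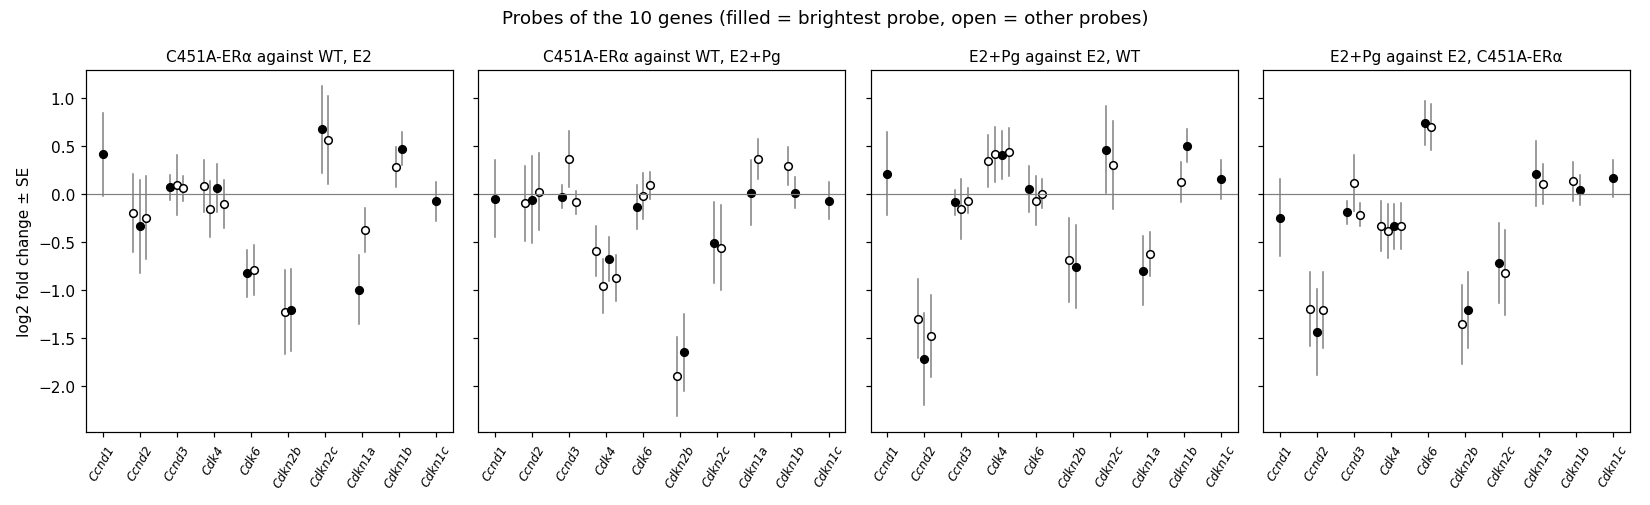
Log2 fold change and SE (vertical axis) of the 23 probes kept for the 10 genes (horizontal axis) in 4 comparisons, without a Cdk6 probe where a group had it above background on no array; filled points are the brightest probe of a gene and open points its other probes. The probes of Ccnd2, Cdk4 and Cdkn2b moved together where these genes differed, while the dimmer probe of Cdkn1a (-0.38, above background on 11 arrays) and that of Cdkn1b (0.28) lay nearer to 0 than the brighter ones in C451A-ERα against WT under E2.

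Cdkn2b, which encodes the INK4 inhibitor p15, was the gene of the 10 that differed with genotype. Its log2 signal was 6.94, 7.33, 7.6, 7.86 and 7.93 in C451A-ERα mice with E2+Pg, against 7.6, 9.19, 9.61, 9.65 and 9.88 in WT mice with E2+Pg. Under E2 it was 7.96, 8.51, 8.72, 9.14 and 9.36 in C451A-ERα mice, against 8.81, 10.12, 10.24 and 10.6 in WT mice. Each pair of groups overlapped through a single WT mouse, L21 (7.6) with E2+Pg and L72 (8.81) with E2.

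Over both treatments the Cdkn2b signal was 2.70-fold lower in C451A-ERα LCs (-1.43, SE 0.29, interval -2.05 to -0.81, adjusted p = 0.0203), against a median of 0.01 over all genes. The call was lost without the WT mouse L67 (adjusted p = 0.0663), L50 (0.0568) or L52 (0.0621), with log2 fold changes of -1.32, -1.38 and -1.40. The share of all genes called, either way, was 2.26% with all mice, and 0.0576%, 0.25% and 0.0192% without each of these. Within a treatment the differences were -1.65 (SE 0.40, adjusted p = 0.109, lower on 5 of 5 slides) with E2+Pg and -1.21 (SE 0.43, adjusted p = 0.213, lower on 3 of 4 slides) with E2. They were called without L21 (-2.05, adjusted p = 0.0125, with 1.09% of all genes) or L18 (-1.74, 0.039, with 5.17%) with E2+Pg, and without L72 (-1.58, 0.0353, with 4.98%) with E2. The second probe of Cdkn2b (chr4:88952437-88952496, minus strand, mm9) gave -1.57 (SE 0.30, adjusted p = 0.0216 over all probes) over both treatments. Greb1, an estrogen-responsive gene, was 12.6-fold lower in C451A-ERα over both treatments (-3.66, SE 0.69, adjusted p = 0.0192).

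With Pg, the Cdkn2b signal was 1.98-fold lower over both genotypes (-0.98, SE 0.29, interval -1.60 to -0.36, adjusted p = 0.049). It lay next to the threshold, since leaving out any of 14 mice, the slide as a block or other background settings ended the call, with adjusted p up to 0.111. In C451A-ERα all 5 mice with E2+Pg lay below all 5 with E2 (-1.21, SE 0.40, adjusted p = 0.111), the highest with E2+Pg at 7.93 and the lowest with E2 at 7.96. In WT the difference was -0.76 (SE 0.43, adjusted p = 0.383), and the interaction was -0.45 (interval -1.69 to 0.79). The most similar signals over the 19 arrays were those of Styk1 (r = 0.96), which encodes a receptor-like pseudokinase, and the complement gene C2 (r = 0.957). Both were called lower in C451A-ERα over both treatments, Styk1 at -0.88 (SE 0.21, adjusted p = 0.029) and C2 at -1.58 (SE 0.26, adjusted p = 0.0173).

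Of the 8 markers of hormone-sensing LCs, 6 were called lower with Pg over both genotypes, where 2.18% of all genes were. Esr1 (-0.99, SE 0.24, adjusted p = 0.0148) and Pgr (-0.85, SE 0.18, 0.00657) were among them. On the log2 scale, the summed signal of the 8 markers was 14.67 to 16.33 in C451A-ERα and 14.82 to 15.85 in WT mice with E2+Pg, against 16.45 to 17.2 in C451A-ERα and 15.81 to 17.07 in WT mice with E2. They moved the same way with Pg as Ccnd2 and Cdkn2b. Of the 8 luminal progenitor and alveolar markers, 6 were higher and 2 lower with Pg over both genotypes (median log2 change 0.47). None of these was called higher and 1 was called lower. The part of a shift between LC types was not tested. With genotype, over both treatments, 1 of the hormone-sensing markers was called higher and 1 lower, and 1 progenitor and alveolar marker was called higher. Of all genes, 2.26% were called either way in that comparison.

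Cdkn2c, which encodes the INK4 inhibitor p18, was not called. Its log2 signal was 6.73 to 9.06 (median 7.49) in C451A-ERα and 7.49 to 9.16 (8.45) in WT with E2+Pg, against 7.78 to 9.35 (8.08) in C451A-ERα and 7.23 to 8.36 (7.73) in WT with E2. The group means ran in opposite directions by treatment, at -0.51 (SE 0.42) for genotype with E2+Pg and 0.67 (SE 0.45) with E2, and the interaction of -1.18 (interval -2.48 to 0.13) had an adjusted p of 0.474.

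Cdkn1a encodes p21, a p53 target. Its log2 signal was 10.97, 11.85, 12.01, 12.25 and 12.41 in C451A-ERα mice with E2, against 12.15, 12.97, 13.21 and 13.26 in WT mice with E2. Of the WT mice, 3 lay above every C451A-ERα mouse, and the difference of -1 (SE 0.36, adjusted p = 0.218) did not pass the threshold. With E2+Pg it was 10.89 to 12.62 in C451A-ERα and 11.43 to 12.59 in WT mice, at a difference of 0.01 (SE 0.34). In WT, E2+Pg against E2 gave -0.80 (SE 0.36, adjusted p = 0.283). A second probe gave -0.38 for genotype under E2, where it was well above background in 3 of 5 C451A-ERα and 4 of 4 WT mice. For Pg in WT, 1 of 5 mice with E2+Pg had it above background.

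Cdkn1b encodes p27. It had log2 signals of 11.24 to 11.71 in C451A-ERα mice with E2, against 10.77, 10.9, 10.97 and 11.32 in WT mice with E2 (0.47, SE 0.17, adjusted p = 0.228, higher on 4 of 4 slides). In WT mice with E2+Pg it was 11.34, 11.39, 11.5, 11.54 and 11.72, all above the 4 WT mice with E2 (0.50, SE 0.17, adjusted p = 0.148). A dimmer probe gave 0.28 (SE 0.21) and 0.12 (SE 0.21) in these comparisons. Between C451A-ERα mice with E2+Pg and with E2 the difference was 0.04 (SE 0.16). The mismatch repair genes Pms2 (r = 0.944) and Msh6 (r = 0.927) had the most similar signals.

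Cdkn1c, an imprinted gene that encodes p57, had log2 signals of 7.71 to 8.39 in C451A-ERα and 7.89 to 8.31 in WT mice with E2+Pg, against 7.23 to 8.52 in C451A-ERα and 7.95 to 8 in WT mice with E2. No difference passed the threshold, and the intervals were -0.36 to 0.21 for genotype over both treatments and -0.13 to 0.44 for Pg over both genotypes. It was measured by 1 probe, as was Ccnd1.

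Within groups, some of the 10 genes varied together from mouse to mouse. Over the deviations of 19 arrays from their group means, 45 pairs were computed. Ccnd1 and Cdkn2c had the highest r (0.91, rho 0.91), and Ccnd1 and Cdkn1a the lowest (r = -0.90, rho -0.77), followed by Cdkn1a with Cdkn2c (-0.88) and with Cdkn1b (-0.85). Among all genes, 0.303% had an r with Cdkn1a as low as that of Ccnd1. The mice L18, L21, L27 and L72, 1 in each group and set apart after the values had been seen, had the highest Ccnd1 and the lowest Cdkn1a of their groups. Over the 15 other mice, r was 0.75 for Ccnd1 with Cdkn2c and -0.63 for Ccnd1 with Cdkn1a. Points on the same array share its RNA, labelling and normalization, and L18 and L27 are among the 3 arrays of least weight.

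Of the other genes of the pathway, none of 13 pocket protein and E2F genes, 5 genes of cyclin E, cyclin A and CDK2 function, 3 subunits of the CDK-activating kinase or 15 genes of cyclin D and p27 turnover was called in any comparison. Of 10 genes of the p53 axis, Zmat3 was called lower with Pg in C451A-ERα (-0.67, SE 0.18, adjusted p = 0.0498), where 2.47% of all genes were called, and Ccng1 over both genotypes (-0.60, SE 0.15, adjusted p = 0.0199), where 3.82% were. Of 14 genes of hormone and paracrine signals to cyclin D1, 3 were called with Pg in C451A-ERα, 4 with Pg over both genotypes and 1, Greb1, with genotype over both treatments. In the last of these comparisons 2.26% of all genes were called. The growth factor receptors Egfr (1.11, SE 0.17, adjusted p = 0.00234) and Igf1r (0.92, SE 0.13, 0.00153) were called higher with Pg in C451A-ERα, and Pgr lower (-0.99, 0.0373). Over both genotypes, Esr1 and Pgr were called lower, as was the EGF family ligand Areg (-1.28, SE 0.27, adjusted p = 0.00701). The remaining gene counted there, Tnfsf11, encodes RANKL. It was well above background in 6 of 10 mice with E2+Pg and 1 of 9 with E2, none of them WT with E2. Tnfsf11 thus passed the filter on dim probes through mice with E2+Pg, so its call is not read as a result and no fold is given.

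None of 16 genes of replication and proliferation was called in any comparison. With Pg, 16 of 16 had a positive log2 change in WT (median 0.37, against 0.04 over all genes) and 2 of 16 in C451A-ERα (median -0.74, against 0). Between the genotypes, 15 of 16 had a negative change with E2+Pg (median -1.06) and 7 of 16 with E2 (median 0.06). The interaction was negative for 16 of 16 (median -1.28, against -0.04 over all genes). All 16 genes were measured in the same mice, so these counts of signs are not independent observations. The mean deviation of these genes in each mouse lay at -2.15 to 1.06 in C451A-ERα and -0.04 to 0.74 in WT with E2+Pg, against -0.81 to 1.14 in C451A-ERα and -0.30 to 0.32 in WT with E2, so that C451A-ERα mice covered a wider range in both treatments. Among the C451A-ERα mice, L18 (1.06) with E2+Pg and L4 (1.14) and L27 (1.1) with E2 were the highest.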

How the data were processed

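LCs of 19 mice were hybridized to single-colour Agilent mouse arrays. The deposited scanner files hold median signal intensity values that the authors extracted with Agilent Feature Extraction 10.10.1.1, in arbitrary units. A deposited table gives the log2 signals after the authors had filtered them, corrected them for washing bath and labelling series and set them to the same quantiles. These batches are not in the labels. The values given were not corrected for batch, and the slide was fitted in their place only in an alternative. Genotype and treatment came from the labels, which give 24 days as the age at ovariectomy where the methods give 26.

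Median signals were taken to log2 and normalized by quantiles (limma 3.58.1, R 4.3.3), without 1370 outlier spots. A probe was kept if at least 4 of the 19 arrays had it well above background (31843 probes), and the brightest of each gene was used. Of all probes, 32994 were named through RefSeq and 23611 by the file. One mean per group was fitted with limma (15 residual degrees of freedom), tests were two-sided, and adjusted p-values run over 20818 genes. Folds are between signals. The fit was tested on simulated data with independent noise in each gene and arrays of equal quality. The weights of the real arrays ran from 0.247 to 3.06, so this checks the computation and not the calls. The number of arrays limits the precision. Alternatives were other background corrections and filters, the mean of all probes, the authors' table, the slide as a block, array weights, only the groups compared and leaving out mice.

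Named were all 10 genes, called genes of the other pathway lists (at most 4 of a list in a comparison) and, for the 4 with the lowest adjusted p, the 2 most similar genes. Genes and lists were chosen with earlier results of these data known. Probe positions are on mm9, promoters on GRCm38.p6.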

Additional observations from a re-analysis of the deposited data

How the results depend on the processing

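No called value changed sign in any alternative. The call of Ccnd2 for Pg over both genotypes held throughout, and the number of the 10 genes called in each comparison moved as follows. For genotype under E2 it was 3 with array weights (0 otherwise) and 0 to 2 when a mouse was left out. For genotype under E2+Pg it was 2 with array weights, 0 to 2 when a mouse was left out and 2 without L4, L18 and L27 together, an alternative chosen after seeing the data. For Pg in WT it was 1 with only the groups compared (Ccnd2, adjusted p = 0.0128), 3 with array weights, 1 without these 3 mice and 0 whenever a mouse was left out. For Pg in C451A-ERα it was 3 with array weights and 0 to 1 when a mouse was left out. For genotype over both treatments it was 2 without these 3 mice (Cdkn2b and Cdk6) and 0 to 2 when a mouse was left out. For Pg over both genotypes it was 1 in place of 2 with the processed signal, with normexp background correction, without a filter on dim probes, with the slide as a block and without these 3 mice, and 1 to 2 when a mouse was left out; Cdkn2b was the gene lost. The cause was not tested. The number of all genes called also moved. It was 2233 with array weights and 0 to 1037 when a mouse was left out for genotype under E2 (6 with all mice, unweighted), and 2613, 1 to 1077, and 3025 without L4, L18 and L27 under E2+Pg (1). When a mouse was left out it was 4 to 1000 for genotype over both treatments (471), 28 to 578 for Pg in WT (282), 204 to 965 for Pg in C451A-ERα (514) and 582 to 916 for Pg over both genotypes (795). With array weights it was 1882 (9.04% of all genes) for Pg in WT and 707 (3.4%) for Pg in C451A-ERα. For Pg in WT it was 315 (1.51%) with only the groups compared and 813 (3.91%) without L4, L18 and L27. Without the same 3 mice it was 2552 (12.3%) for genotype over both treatments and 760 (3.65%) for Pg over both genotypes. No paired analysis was possible by mouse or litter because the labels pair no mice across groups. Slides 1, 2, 4 and 5 each held 1 mouse of every group, so the slide was fitted as a block in an alternative and differences within slides are given. The probes used for the 10 genes were well above background on all arrays, and the groups of 4 or 5 mice limit the precision of each value.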
